A study of Mus musculus with 6 samples.

Results

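The 7 genes *Hras*, *Nras*, *Araf*, *Braf*, *Map2k1*, *Map2k2* and *Mapk3* encode Ras, Raf, Mek and Erk proteins, and each had a row of its own among the 23698 rows of the count tables. The members were chosen by name, and 0 of the rows that join several gene names held one of them. The study used a mouse model of squamous cell carcinoma, in which keratinocytes carry *HrasG12V* together with a *Tgfbr2* fl/fl KO genotype and were taken into culture from the back skin of newborn (P0) mice. The cells, called SCC cells here, were used at passages 10 to 15, and the study's methods describe them as a previously generated line. All 3 libraries analysed here came from these cells, 1 ribosome profiling library and 2 RNA-seq replicates. Wild-type keratinocytes were not analysed here. All values are therefore levels within SCC cells and show no response to the oncogene or to the loss of *Tgfbr2*. Nothing in the labels says whether the RNA-seq replicates came from separate cultures, and the spread between them may therefore be technical.

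Ras proteins are small GTPases that pass signals from growth factor receptors to the Raf kinases when they carry GTP. Raf kinases phosphorylate the Mek kinases, and these phosphorylate the Erk kinases, which act on transcription factors and on further kinases that control growth and division. In the epidermis this cascade drives keratinocyte proliferation, and activating *Hras* mutations are a classical first event of chemically induced skin tumors in mice. The G12V exchange blocks GTP hydrolysis and keeps Ras active. A count for a gene carries no information on single bases, and mutant and wild-type *Hras* transcripts cannot be told apart in these values.

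In ribosome profiling, nuclease removes the mRNA outside ribosomes and the fragments left inside them, called footprints, are sequenced, while RNA-seq measures how much mRNA is present. The counts on exons summed to 3549555 footprints in the ribosome profiling library and to 10707930 and 14003713 reads in RNA-seq replicates 1 and 2. The cascade genes together held 2117 of these footprints and 11443 and 15699 of the RNA-seq counts. Levels are given as RPKM, the count divided by the length of the counted sequence and by the size of the library, so that genes of different length can be compared. The keratinocyte origin was visible in the markers, as all 8 keratinocyte markers were above 1 RPKM in both RNA-seq replicates, with *Krt5* highest (7965 and 9483 RPKM) and *Cdh1* lowest (50.8 and 51.8 RPKM). Their summed level was 13837 and 15855 RPKM. The 8 fibroblast markers summed to 10.3 and 15.99 RPKM, 4 of them were above 1 RPKM in both replicates, and *Col3a1* was the most abundant (3.89 and 5.49 RPKM). On the CDS of 7 of these 8 genes there were 0 footprints, and *Pdgfra* had 10. The 4 melanocyte markers summed to 5.38 and 5.47 RPKM, nearly all of it from *Pmel* (5.03 and 5.19 RPKM). The 4 immune markers summed to 35.2 and 37.5 RPKM, nearly all from *Cd68* (35.1 and 37.3 RPKM), while *Cd3e* and *Cd207* were at 0 in both replicates. The 3 endothelial markers summed to 0.505 and 0.591 RPKM.

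Because the analysis turned on where ribosomes sit at the 5′ end of these mRNAs, start sites of 6 genes are shown first. For each gene the annotated coding transcript with the 5′UTR length nearest to the counted one was taken from GENCODE M21 on GRCm38, and the sequences run from 12 nt before the start codon, in capitals, to 6 nt after it.
Hras: gctgtagaagctATGacagaa
Araf: atcttaggcaacATGgaacca
Braf: cgcgcttcgaagATGgcggcg
Map2k1: cccggctgcaagATGcccaag
Map2k2: cgtggagccccgATGctggcc
Mapk3: ggaggagtggagATGgcggcg
These windows lie at chr7:141192932-141192952 (- strand, *Hras*), chrX:20849975-20849995 (+ strand, *Araf*), chr6:39725287-39725307 (- strand, *Braf*), chr9:64253284-64253304 (- strand, *Map2k1*), chr10:81106135-81106155 (+ strand, *Map2k2*) and chr7:126759634-126759654 (+ strand, *Mapk3*). Each is exonic and spans the border of 5′UTR and CDS. The base at position 4, counted with the A of ATG as position 1, is part of the context that initiation favours, and it was a G in *Araf*, *Braf* and *Mapk3*. A G was found there in 53.9% of the 9300 genes that passed the expression filters and had an annotated 5′UTR and an ATG start.

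An ATG upstream of the CDS was annotated in 4 of the 7 genes (*Hras*, *Nras*, *Araf* and *Map2k2*) and in 50.9% of the 9300 genes. These sites, searched as ATG on the transcript strand, are shown with the upstream ATG in capitals.
Hras upstream: cggacggagctcATGcgcggg
Nras upstream: cgggggctgttcATGgcggtt
Araf upstream, first: gacaagcccaagATGgaggcg
Araf upstream, second: gacaggaggcctATGgcagct
Map2k2 upstream: gcgccgccccctATGggcccc
In *Hras* the upstream ATG begins at position 80 of the 206 nt 5′UTR (window chr7:141193917-141193937, - strand, exon of the 5′UTR) and opens a reading frame of 74 codons that runs 98 nt into the CDS in another frame. In *Nras* it begins at position 79 of the annotated 173 nt (window chr3:103058351-103058371, + strand) and opens a frame of 32 codons that also reaches the CDS. Both *Araf* frames, at positions 45 (window chrX:20848575-20848595, + strand) and 85 (window chrX:20848615-20849942, + strand, across an exon junction), end before the CDS after 9 and 11 codons. The *Map2k2* frame, at position 159 (window chr10:81106093-81106113, + strand), ends after 4 codons. Of the 1757 genes with an annotated 5′UTR of 165 to 247 nt, a range around the length of *Hras*, 57.0% had an upstream ATG. The GC content of the annotated 5′UTRs was 82.0% in *Hras*, 63.0% in *Nras*, 56.9% in *Araf*, 85.1% in *Braf*, 70.8% in *Map2k1*, 79.0% in *Map2k2* and 86.7% in *Mapk3*. An annotated 5′ end is not the measured start site of the mRNA in these cells, and the counts hold no positions within a region.

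On the RNA level, *Map2k2* was by far the most abundant gene of the cascade and *Braf* the least. In order of the mean RPKM on exons, *Map2k2* (184 ± 18.6, SD, n = 2) was followed by *Mapk3* (58.7 ± 6.39), *Map2k1* (52.9 ± 1.84), *Hras* (49.7 ± 1.70), *Nras* (31.3 ± 1.23), *Araf* (24.6 ± 0.221) and *Braf* (13.2 ± 2.02). The replicates of *Mapk3* and *Map2k1* overlapped, whereas those of every other pair of neighbours in this order did not. *Map2k1* and *Hras* were close, as the lowest *Map2k1* replicate was at 51.6 RPKM and the highest *Hras* replicate at 50.9 RPKM. The median gene that passed the filters was at 15.3 RPKM, and 6 of the 7 genes were above it. When RNA-seq was counted over the CDS in place of all exons, *Hras* rose to 128 RPKM and took the second place after *Map2k2* (347 RPKM), ahead of *Map2k1* (68.8 RPKM) and *Mapk3* (64.5 RPKM).

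**Figure D1:**
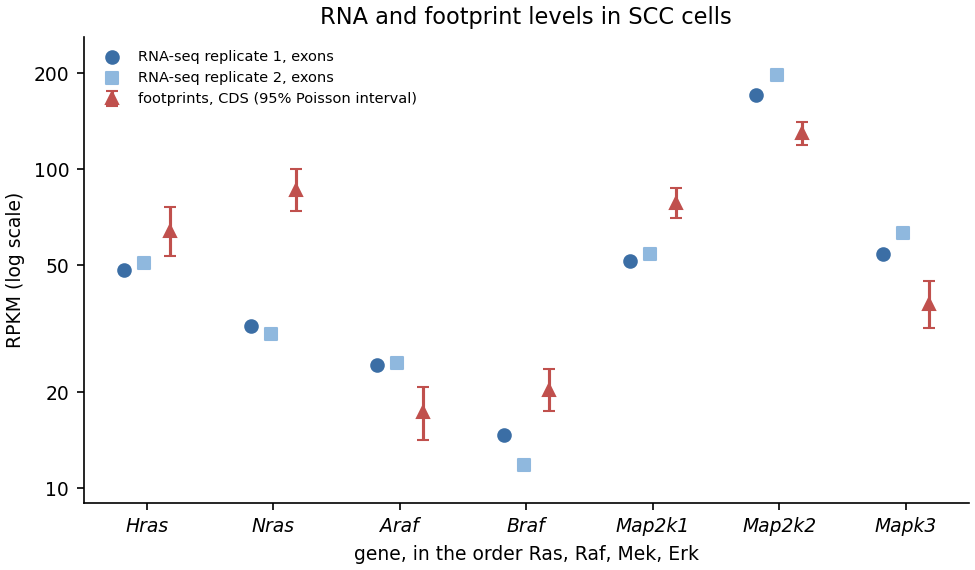
RPKM on a log axis for the 7 genes, with RNA-seq replicates 1 and 2 on exons as dark blue circles and light blue squares, and footprints on the CDS as red triangles, whose bars are exact Poisson 95% intervals. *Map2k2* was highest in both measures, and *Nras* had more footprints on the CDS than *Hras* (86.0 against 64.0 RPKM) from less RNA.

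*Hras* and *Nras* encode close paralogs that differ mainly in the C-terminal tail that anchors them to membranes, and the *Hras* protein is the activated oncogene of these cells. *Hras* lies at chr7:141189105-141194005 (- strand) and had 2272 exonic nt with 1179 (replicate 1) and 1619 (replicate 2) RNA-seq counts, or 48.5 and 50.9 RPKM. *Nras* lies at chr3:103058285-103067914 (+ strand) and had 1450 and 1794 counts on 4208 nt, or 32.2 and 30.5 RPKM. *Hras* RNA was thus 1.51 and 1.67 times as abundant as *Nras* RNA in the 2 replicates. Counted over the CDS the gap was larger, with *Hras* RNA at 126 and 130 RPKM and *Nras* RNA at 55.2 and 58.3 RPKM. For footprints on the CDS the order was the other way around. *Hras* had 128 footprints on 564 nt (64.0 RPKM) and *Nras* 173 on 566 nt (86.0 RPKM), so the footprint density of *Hras* was 0.744 times that of *Nras* (exact Clopper-Pearson 95% interval from 0.586 to 0.939). This interval and those that follow cover counting error only, since copies of a read made by PCR are not independent molecules. The counted CDS made up 86.9% of all annotated CDS positions of *Hras* and 99.8% of those of *Nras*. Neither CDS shared more than a few 28 nt windows with a transcript of another gene, 0 of 540 in *Hras* and 2 of 543 in *Nras*.

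Translational efficiency was the footprint RPKM on the CDS divided by the mean RNA-seq RPKM on exons, on the log2 scale and relative to the median of the 9862 genes that passed the filters. Relative to that median, *Hras* was at 0.02 ± 0.06 (SD over 2 RNA-seq replicates, 1 ribosome profiling library), with an exact Poisson 95% interval of the footprints from -0.24 to 0.27. *Nras* was at 1.12 ± 0.05 (0.89 to 1.33). *Hras* therefore stood in the middle of all genes (percentile 50.9) and *Nras* at percentile 81.8. Their difference of -1.09 was -1.02 and -1.17 against the single RNA-seq replicates, and its interval from the footprints, -1.44 to -0.76, was on 1 side of 0. With RNA-seq counted over the CDS, *Hras* was at -1.05 and *Nras* at 0.55, and without division by region length they were at -0.97 and -0.77. The position of *Nras* above 1 and that of *Hras* in the middle of all genes both depended on these choices. *Hras* was below *Nras* in both, but without division by length most of their difference was gone. The annotated upstream frame runs 98 nt into the *Hras* CDS and 4 nt into the *Nras* CDS. Ribosomes on these frames would be counted on the CDS. Their part in the CDS densities and efficiencies of *Hras* and *Nras* could not be tested from counts per region.

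The Raf kinases *Araf* and *Braf* were the least abundant of the cascade. *Araf* (chrX:20797814-20860519, + strand) had 835 and 1106 RNA-seq counts over 3193 exonic nt, or 24.4 and 24.7 RPKM. *Braf* (chr6:39603237-39725463, - strand), the Raf kinase with the highest basal activity, had 1528 and 1609 counts on 9728 nt, or 14.7 and 11.8 RPKM. *Braf* RNA was lower than *Araf* RNA in both replicates, with ratios of 0.601 and 0.478. Footprints on the CDS did not show this order. *Braf* had 174 footprints on 2412 nt (20.3 RPKM) and *Araf* 111 on 1813 nt (17.3 RPKM), a density ratio of 1.18 with an interval from 0.923 to 1.51 that includes 1. Log2 translational efficiency was 0.28 ± 0.21 for *Braf* (0.05 to 0.49) and -0.85 ± 0.02 for *Araf* (-1.13 to -0.58). In the *Braf* CDS, 121 of 2388 windows of 28 nt also occurred in transcripts of 5 other genes, so a part of its counts could be shared with them. Annotated exons of *Ndufb2* overlap those of *Braf*, and exons of *Syn1* those of *Araf*, on the opposite strand in both cases.

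*Map2k1* and *Map2k2* encode Mek1 and Mek2, the dual-specificity kinases whose only well-established substrates are the Erk kinases. *Map2k1* (chr9:64185770-64253631, - strand) had 1319 and 1812 RNA-seq counts over 2387 exonic nt, or 51.6 and 54.2 RPKM. *Map2k2* (chr10:81105915-81133975, + strand) had 4279 and 6459 counts on 2338 nt, or 171 and 197 RPKM. *Map2k2* RNA was 3.31 and 3.64 times as abundant as *Map2k1* RNA in replicates 1 and 2. The excess was smaller in footprints, with 537 on 1168 nt of the *Map2k2* CDS (129 RPKM) and 328 on 1179 nt of the *Map2k1* CDS (78.4 RPKM), a density ratio of 1.65 (1.44 to 1.90). Log2 translational efficiency was 0.22 ± 0.06 for *Map2k1* (0.06 to 0.38) and -0.85 ± 0.16 for *Map2k2* (-0.98 to -0.73). Between both CDSs, 42 windows of 28 nt were shared, 3.64% of those of *Map2k1* and 3.57% of those of *Map2k2*. RNA-seq counts of *Map2k2* were concentrated on the CDS, and over the CDS its RNA was at 321 and 373 RPKM in the 2 replicates. Its counted 3′UTR of 970 nt was at 24.7 and 23.6 RPKM, while the annotated transcript taken here has a 3′UTR of 153 nt. With RNA-seq counted over the CDS, the log2 translational efficiency of *Map2k2* was -1.47.

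*Mapk3* encodes Erk1, one of the terminal kinases of the cascade. It lies at chr7:126759601-126765819 (+ strand) and had 853 and 1301 RNA-seq counts over 1469 exonic nt, or 54.2 and 63.2 RPKM. Its CDS held 141 footprints on 1052 nt (37.8 RPKM), and the counted CDS was 86.3% of the annotated one. Log2 translational efficiency was -0.98 ± 0.17 (-1.23 to -0.74), with an interval that overlaps those of *Araf* and *Map2k2*. It was -0.86 against RNA-seq replicate 1 and -1.10 against replicate 2, on either side of -1. With RNA-seq counted over the CDS it was -0.82 and without division by region length -0.45. In its CDS, 99 of 1116 windows of 28 nt (8.87%) also occurred in transcripts of 5 other genes.

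**Figure D2:**
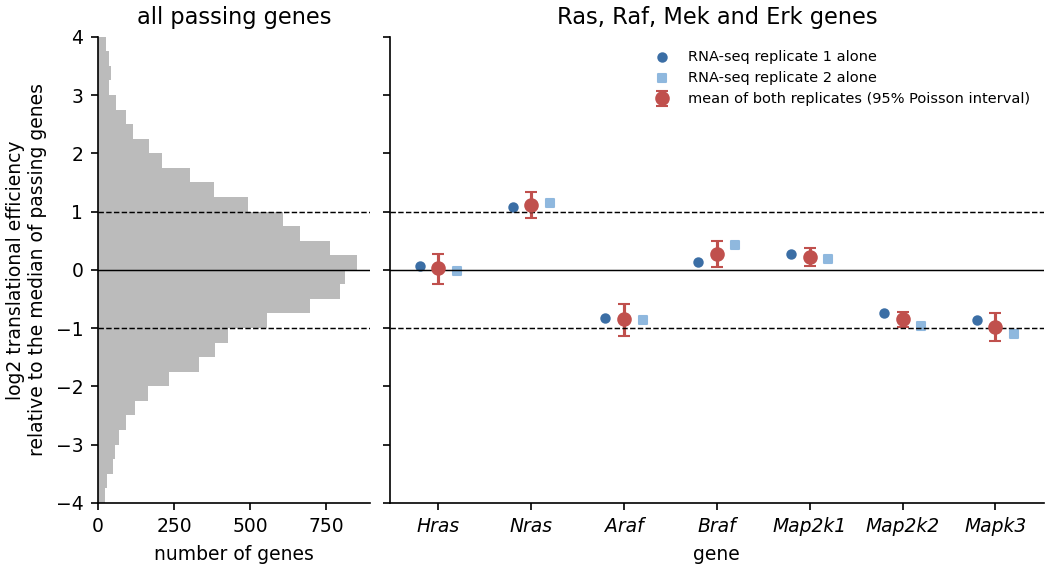
Left, number of passing genes by log2 translational efficiency, with 173 genes beyond -4 or 4 not drawn. Right, the 7 cascade genes, with red points for the mean of both RNA-seq replicates (bars are exact Poisson 95% intervals of the footprints) and blue symbols for each replicate alone. By the mean, *Nras* lies above 1 and the other 6 genes between -1 and 1, with *Mapk3* at -1.10 against replicate 2.

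Across the cascade, all 7 genes passed the filters, and 1 of them, *Nras*, had a log2 translational efficiency above 1, against 20.7% of all passing genes. Below -1 there were 0 of 7 genes, against 21.1% of all passing genes. The other 6 genes lay between these limits, 4 of the 7 were above the median of all genes and 3 under it, and the median of the 7 was 0.02. The SD over all passing genes was 1.45, so the cascade genes, from -0.98 to 1.12, stayed within 1 SD of the median. These calls moved with the processing, as *Nras* was at 0.72 when each of the 3 libraries had to hold at least 100 counts, a filter with which *Araf* (-1.24), *Map2k2* (-1.24) and *Mapk3* (-1.37) were below -1. That filter raised the median of all genes by 0.39 on the log2 scale and so lowered all 7 genes alike. The same filter put *Hras* (-0.37), *Braf* (-0.12) and *Map2k1* (-0.17) under the median of all genes as well. *Hras* (-0.97), *Nras* (-0.77) and *Braf* (-0.72) were under the median without division by region length. With RNA-seq counted over the CDS, *Hras* (-1.05) and *Map2k2* (-1.47) were below -1, and the cause was not tested. In each pair of paralogs the gene with less RNA had the higher translational efficiency, by 1.09 (*Nras* over *Hras*), 1.13 (*Braf* over *Araf*) and 1.08 (*Map2k1* over *Map2k2*). Without division by region length, *Braf* (-0.72) was no longer above *Araf* (-0.65). Translational efficiency has the RNA level in its denominator, and 3 pairs allow a description only.

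Ribosomes on a 5′UTR can mark initiation upstream of the CDS, and footprint density there was compared with the density on the CDS of the same gene. Limits of 60 nt of 5′UTR carrying at least 30 footprints and 10 RNA-seq counts, with 10 footprints on the CDS, were met by 1045 genes and by 3 of the 7 cascade genes. In 1 of these 3, *Hras*, the 5′UTR had the higher density, against 24.8% of the 1045 genes, and in *Map2k1* and *Map2k2* it had the lower one. *Hras* had 245 footprints on 206 nt of 5′UTR and 128 on the CDS, or 119 and 22.7 per 100 nt, a log2 ratio of 2.39 (2.08 to 2.71). This value, at percentile 99.6, was known from an earlier analysis of the same libraries and is the base for the RNA-seq comparison here. The 5′UTR held 65.7% (60.6% to 70.5%) of the footprints on both regions. RNA-seq showed the reverse distribution, with 19.5 counts in replicate 1 and 37.2 in replicate 2 for the *Hras* 5′UTR, and log2 ratios of -3.84 and -3.33. Per nt, the *Hras* 5′UTR was at 335 RPKM (294 to 380) in footprints and at 8.85 and 12.9 RPKM in RNA-seq. In RNA-seq the *Hras* 3′UTR (17.0 and 19.2 RPKM) was also below the CDS (126 and 130 RPKM), and the cause was not tested. The footprint ratio of *Hras* was exceeded by 4 of the 1045 genes.

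**Figure D3:**
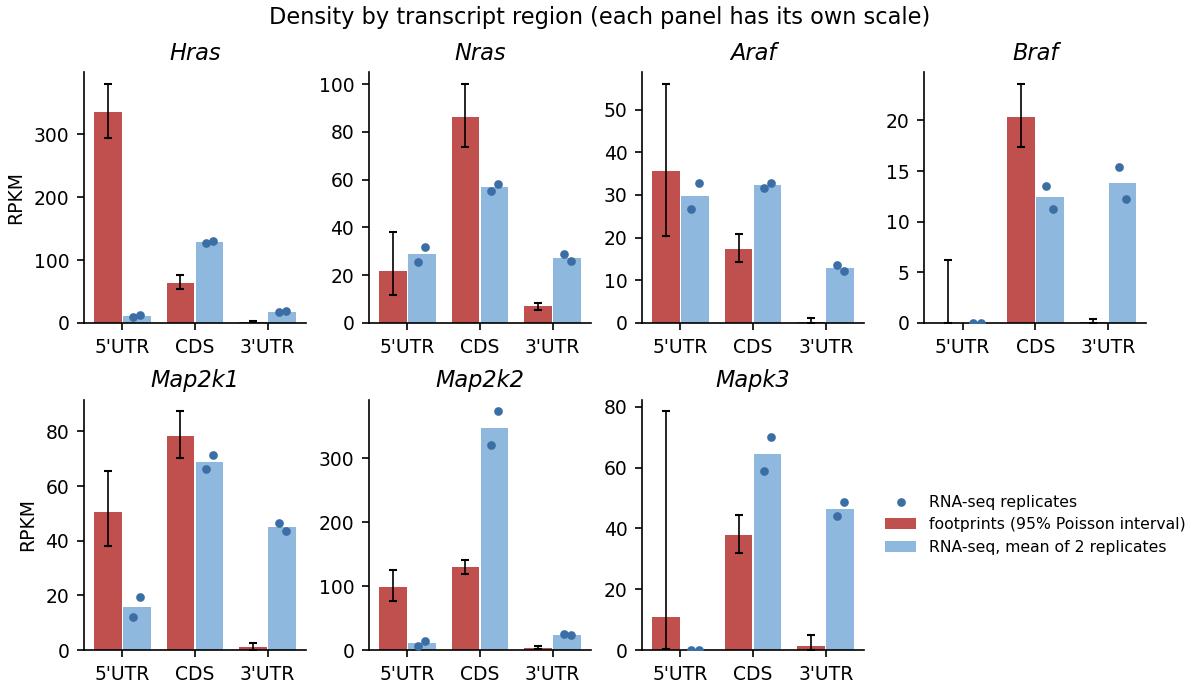
RPKM by region for the 7 genes, each panel with its own scale, with footprints as red bars (exact Poisson 95% intervals), the mean of RNA-seq as light blue bars and the replicates as dark blue points. The *Hras* 5′UTR was at 335 RPKM in footprints, against 8.85 and 12.9 RPKM in RNA-seq.

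The Mek genes were close to each other in this measure. *Map2k1* had 56.2 footprints on 313 nt of 5′UTR, or 18.0 per 100 nt against 27.8 on the CDS, a log2 ratio of -0.63 (-1.07 to -0.22) at percentile 60.3. *Map2k2* had 70.0 footprints on 200 nt, or 35.0 per 100 nt against 45.9 on the CDS, a log2 ratio of -0.39 (-0.77 to -0.03) at percentile 66.7. Both were above the median of the 1045 genes, which was -0.99. RNA-seq over the same regions gave -2.46 and -1.88 for *Map2k1* in replicates 1 and 2. For *Map2k2* it gave -5.64 and -4.67, from 13.8 and 41.0 counts. After the RNA-seq ratio of both replicates was subtracted, *Hras* was at 5.92, *Map2k2* at 4.59 and *Map2k1* at 1.46. All 3 genes were above 0, as were 59.3% of the 1045 genes. Their percentiles were then 99.6 (*Hras*), 97.5 (*Map2k2*) and 70.8 (*Map2k1*), so the Mek genes were no longer close to each other. RNA-seq coverage of a 5′ end can be low for technical reasons, which was not tested.

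The other 4 genes did not meet the limits and are given without a percentile. *Nras* had 12.6 footprints on 164 nt, a log2 ratio of -1.99 (-2.89 to -1.14), with RNA-seq ratios of -1.11 and -0.87. *Araf* had 17.4 footprints on 137 nt, a log2 ratio of 1.05 (0.19 to 1.76), while its RNA-seq ratios were -0.25 and -0.0024. *Araf* was thus the second cascade gene with a denser 5′UTR, from few footprints. *Braf* had 0 footprints and 0 RNA-seq counts on its 168 nt in every library, so an absence of ribosomes cannot be told from an absence of countable sequence. *Mapk3* had 0.772 footprints on a counted 5′UTR of 20 nt.

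Upstream ATGs were compared with this measure in the 999 genes that met the limits and had a reference transcript. Of the 242 genes with higher 5′UTR density, 91.3% had an upstream ATG, and of the 757 genes with lower density, 50.1% had one. The 5′UTRs of the former were also longer, with medians of 323.5 and 254 nt, and the part that length plays was not tested. Within the cascade, *Hras* had 1 upstream ATG and the higher density, *Map2k2* had 1 and the lower density, and *Map2k1* had none and the lower density.

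**Figure D4:**
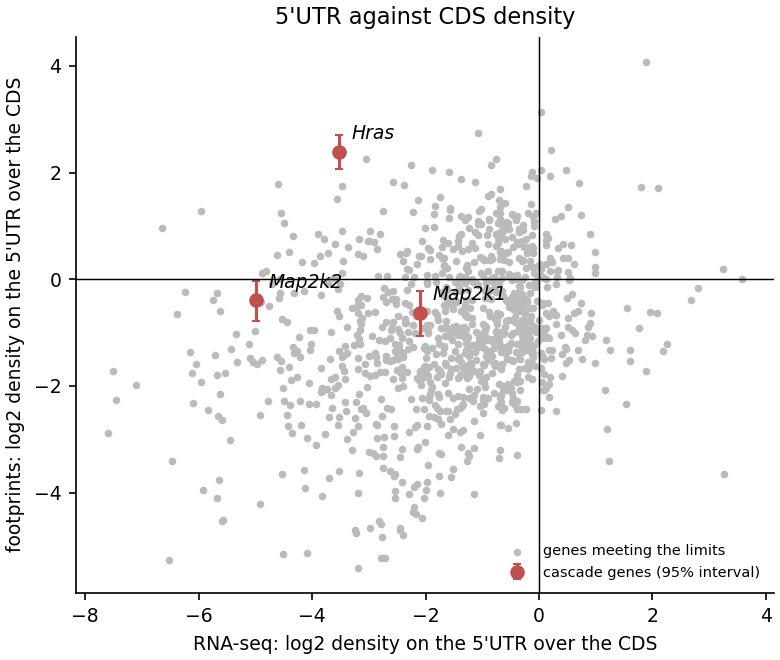
Log2 ratio of 5′UTR to CDS density in footprints (vertical) against the ratio in RNA-seq (horizontal), with 1045 genes in grey and 3 cascade genes in red (exact Clopper-Pearson 95% intervals). In footprints *Hras* was at 2.39, *Map2k2* at -0.39 and *Map2k1* at -0.63.

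Few footprints are expected on a 3′UTR, where ribosomes have terminated, and *Nras* was an exception singled out after the values were seen. *Nras* had 85.2 footprints on 3478 nt of 3′UTR, or 31.5% (26.0% to 37.4%) of its footprints on the 5′UTR, CDS and 3′UTR together. Per 100 nt these were 2.45 footprints on the 3′UTR and 30.5 on the CDS. *Mapk3*, with the highest ratio of these densities among the other 6 genes, had 0.519 and 13.4 per 100 nt. This rank of *Mapk3* is uncertain, as it rests on 2.06 footprints on the 3′UTR (share interval from 0.169% to 4.93%). *Braf*, with the longest 3′UTR of the cascade (7148 nt), had 3 footprints there, or 1.69% of its footprints, and the part that length plays in these shares was not tested. The *Nras* share was at percentile 99.7 of the 4890 genes with at least 100 footprints on the CDS and a counted 3′UTR, whose median was 0.969%. The other 6 cascade genes had shares from 0.848% (*Map2k1*) to 2.08% (*Hras*). In RNA-seq, 73.8% and 70.2% of the *Nras* counts lay on the 3′UTR. Of the 3700 windows of 28 nt in the *Nras* 3′UTR, 150 (4.05%) also occurred in transcripts of 4886 other genes. Whether the footprints lay on those windows could not be tested from counts per region.

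A list of 64 genes around the cascade was examined by role. All 64 were in the count tables and 60 passed the filters, of which 14 (23.3%) had a log2 translational efficiency above 1 and 10 (16.7%) one below -1, with a median of 0.03. These shares were near those of all passing genes, 20.7% and 21.1%. Of the scaffolds and cofactors of Raf, Mek and Erk, 10 of 19 genes were above 1, against the same 20.7%, and 6 of the 10 encode 14-3-3 proteins. Among the other scaffolds above 1, the counted CDS was as little as 13.7% of the annotated one (*Ppp1cc*, named after its value was seen). The 6 14-3-3 genes of the list, whose products bind phosphorylated Raf, were above 1, from 1.38 to 3.40, and were singled out after their values were seen. The counted CDS of these 6 genes covered 38.6% to 100% of the annotated one. *Ywhaz* was the highest, with 148 and 135 RPKM of RNA in replicates 1 and 2 and 4837 footprints. The lowest scaffold was *Shoc2* (-0.80, with RNA at 50.1 and 43.8 RPKM), which supports Raf activation by Ras. Without the 14-3-3 genes, 8 of the 54 other genes were above 1 and 10 below -1. Over the whole list, 6 of the 38 genes left were above 1 when each library had to hold at least 100 counts, against 18.8% of all genes left. Without division by region length 6 of 60 were above 1, against 19.2% of all genes. Among genes whose counted CDS reached 80% of the annotation, a limit chosen after seeing the data, 11 of 56 were above 1, against 19.8%.

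In each other role, the highest and the lowest gene are named among those with at least 100 footprints on the CDS, and genes with fewer footprints may lie outside these values. Among the Ras paralogs, 4 of 7 genes were above 1 and 1 below -1, against 20.7% and 21.1% of all passing genes, and the named genes were *Rap1a* (1.53, with RNA at 20.4 and 14.6 RPKM) and *Ralb* (0.47, with RNA at 272 and 273 RPKM). Of the activators and adaptors, 0 of 6 were above 1 and 2 below -1, and those named were *Grb2* (0.73, with RNA at 51.2 and 48.4 RPKM), the adaptor that brings Sos to receptors, and *Ptpn11* (-0.07, with RNA at 40.8 and 42.5 RPKM). GTPase activators switch Ras off, and 0 of 6 were above 1 and 1 below -1, with *Nf1* (0.06, with RNA at 5.03 and 4.28 RPKM) and *Dab2ip* (-1.14, with RNA at 18.6 and 19.9 RPKM) named. For Ras lipid processing, with 0 of 7 genes past either limit, the farnesyltransferase subunits *Fnta* (0.47, with RNA at 33.9 and 33.5 RPKM) and *Fntb* (-0.13, with RNA at 32.6 and 35.3 RPKM) are named. Of the genes downstream of Erk, 0 of 8 were above 1 and 3 below -1, and a group difference was not tested. The named genes were the Rsk kinase *Rps6ka3* (0.59, with RNA at 18.0 and 15.2 RPKM) and the Mnk kinase *Mknk2* (-2.60, with RNA at 191 and 218 RPKM). Of the other Ras effectors, 0 of 7 were above 1 and 3 below -1, with *Rassf1* (0.25, with RNA at 15.6 and 16.9 RPKM) and *Tiam1* (-1.74, with RNA at 32.6 and 34.0 RPKM) named. The 5′UTR limits were met by 15 genes of the list, and 2 had the higher density on the 5′UTR, against 24.8% of the 1045 genes. These were *Grb2*, with 128 footprints on 331 nt (0.06, with an interval from -0.27 to 0.37 that includes 0, and -0.52 in RNA-seq), and the palmitoyltransferase gene *Zdhhc9*, with 31.9 footprints on 346 nt (1.10, with an interval from 0.41 to 1.78, and -0.87 in RNA-seq).

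**Figure D5:**
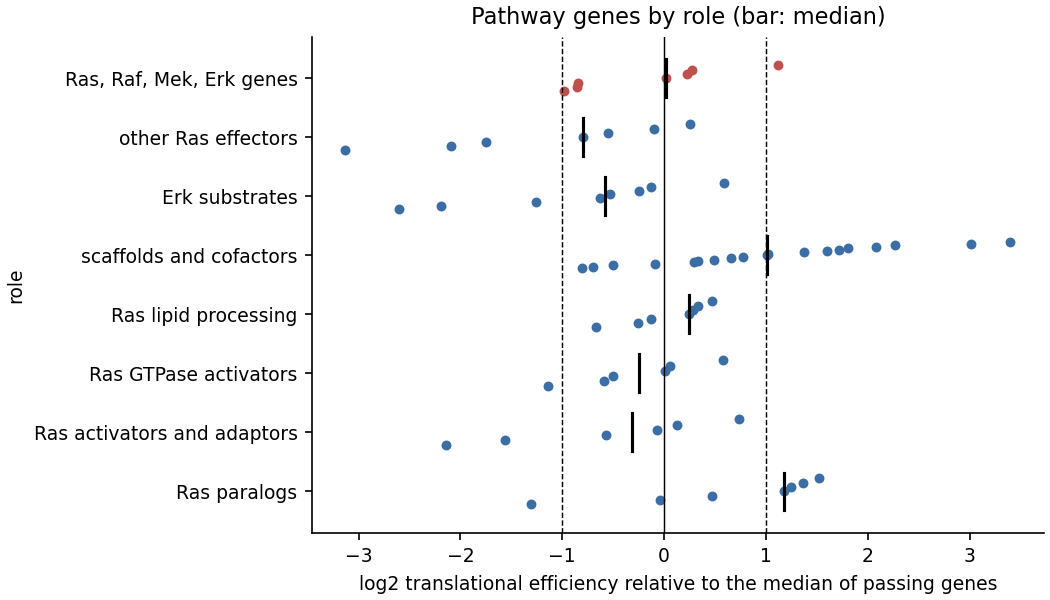
Log2 translational efficiency of the pathway genes by role (blue) and of the 7 cascade genes (red), with a black bar at each median. Among genes with at least 100 footprints, *Ywhaz* was highest (3.40) and *Mknk2* lowest (-2.60).

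Genes most like *Hras* in RNA level, translational efficiency and 5′UTR over CDS density were sought among the 1045 genes. The nearest was *Sephs2*, a selenophosphate synthetase gene (RNA 25.6 and 24.98 RPKM, log2 translational efficiency -0.17), with 62.3 footprints on 140 nt of 5′UTR and a log2 ratio of 2.14. *Dbf4*, which encodes the activator of a replication kinase, followed (41.1 and 39.2 RPKM, -0.69), with 80.8 footprints on 204 nt and a ratio of 1.83. The ubiquitin ligase gene *Trip12* came next (51.4 and 44.3 RPKM, -0.33), with 50.7 footprints on 125 nt and a ratio of 1.24. All 3 had a lower ratio than *Hras*. Nearest to *Map2k1* was *Ankrd22* (60.0 and 56.1 RPKM, 0.23), with a ratio of -0.69. *Prelid1*, a gene of mitochondrial lipid transfer, was nearest to *Map2k2* (186 and 228 RPKM, -0.75), with a ratio of -0.22. Likeness in these 3 measures says nothing about function.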

How the data were processed

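Ribosome profiling (1 library) and RNA-seq (2 replicates) of SCC keratinocytes were analysed. Long-read samples and wild-type libraries were not analysed here. The authors trimmed reads with Trim Galore and then removed ribosomal, mitochondrial and tRNA matches from the footprints with Bowtie2 2.4.1. They aligned the reads to GRCm38 with STAR 2.6.1 and counted each gene by region (whole exons, 5′UTR, CDS, 3′UTR). The deposited values are estimated counts per gene and region, made by the authors from these alignments and not always whole. Counted lengths and RPKM were also deposited, and the authors' RPKM uses library totals larger than the sum of the exon counts.

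RPKM was recomputed from the exon sums, 3549555, 10707930 and 14003713. A gene passed when each RNA-seq library had more than 1 RPKM, its base mean exceeded 25 and its counted CDS held a footprint. With 1 condition no difference was tested. Errors are the SD over 2 RNA-seq replicates and exact Poisson or Clopper-Pearson 95% intervals, which were computed for counting error alone. Called means a log2 translational efficiency above 1 or below -1, or a 5′UTR denser in footprints than the CDS. The calculation was tested on simulated data. Python 3.11.15, numpy 2.4.6, pandas 2.3.3, scipy 1.17.1 and matplotlib 3.10.9 were used, and counts were rounded to whole numbers for DESeq2 1.42.0 and edgeR 4.0.16 factors in R 4.3.3.

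Structures and sequences came from GENCODE M21, taking the coding transcript with the 5′UTR length nearest to the counted one. The release used for counting is not stated. Alternatives were leaving out each RNA-seq replicate, DESeq2 and edgeR TMM factors, a pseudocount of 1, other count filters, RNA-seq over the CDS, no length division, the deposited RPKM, other footprint minimums, no limit on RNA-seq counts, and subtraction of the RNA-seq ratio.

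Named genes are all members, the highest and lowest translational efficiency of each role group with at least 100 footprints on the CDS, list genes with higher 5′UTR density, the 3 genes nearest to *Hras* and the nearest 1 to each other member meeting the 5′UTR limits. Members and lists were chosen with earlier results of these data known. Further isoforms of these families and 1 start site sequence are not reported here.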

Additional observations from a re-analysis of the deposited data

How the results depend on the processing

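The order of RNA levels from *Map2k2* to *Braf* was the same without either replicate and with DESeq2 or edgeR factors, while over the CDS the median level was 64.5 RPKM. When each library had to hold at least 100 counts, 4829 genes passed, 908 above 1 and 757 below -1, the cascade had a median of -0.37 with 0 genes above 1 and 3 below -1, and the pathway list had 6 genes above 1 and a median of -0.082. That filter left fewer genes and raised the median of all genes by 0.39, which lowered the cascade genes alike. The shares of all genes left were 18.8% above 1 and 15.7% below -1, and 38 list genes were left. With RNA-seq over the CDS, the cascade median was -0.82, with 0 genes above 1 and 2 below -1 (18.3% and 19.5% of all genes), and the list median was 0.16. Without length division the cascade median was -0.72, with 0 genes above 1 (19.2% of all genes), the list had 6 of 60 above 1 and a median of -0.13, and *Nras* reversed to -0.77. With a count above 0 as the filter, 1 gene was below -1 (21.8% of all genes), and with the deposited RPKM the list median was -0.046. Leaving out 1 RNA-seq replicate gave 0 to 1 cascade genes below -1 (20.9% to 21.2% of all genes) and a list median from 0.015 to 0.11. *Nras* was above 1 in 8 of 11 alternatives, 1 of which (at least 80% of the CDS counted) was chosen after seeing the data. For the 5′UTR, subtracting the RNA-seq ratio gave 3 cascade genes and 620 genes (59.3%) with higher density, and 5.92 for *Hras*. With at least 10 footprints, 5 cascade genes and 2649 genes met the limits, 2 and 652 with higher density. With at least 100, 1 and 229 met them, 44 genes had higher density, and *Hras* was at percentile 98.9. Beyond the number of genes admitted, the cause was not tested. No paired analysis was possible because the labels pair no libraries. In the 1 ribosome profiling library, 4 cascade genes had fewer than 30 footprints on the 5′UTR. Of these, *Mapk3* had only 20 nt of counted 5′UTR, and *Braf* had 0 RNA-seq counts there as well.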
